A study of Homo sapiens with 6 samples.

Results

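The 45 genes followed here belong to the apoptosis machinery (the BCL2 family, the caspases, the death receptors with the ligand TNFSF10, their adaptors, and the caspase inhibitors) and were measured in oral squamous cell carcinoma (OSCC) cells after knockdown of the long noncoding RNA DLEU1. The members were taken by gene name, and every probe carrying one of the 45 names was used, which gave 70 probes among 50599 on the array. Of these, 60 probes of 40 genes passed the filter on low signal, against 19956 of all probes.

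HSC-3, KON, and Ca9-22, which are established human OSCC cell lines, were transfected with Lipofectamine RNAiMAX and either a universal negative control siRNA (siCtrl) or an siRNA against DLEU1 (siDLEU1-2), and total RNA was prepared after 72 h. Each line and siRNA was hybridized to 1 one-color Agilent array, 6 arrays in all, so that the 3 lines are the only replicates and p-values measure the spread between lines. There was no replicate within a line, and the knockdown was transient and made with 1 siRNA. DLEU1 itself, measured by 1 probe at chr13:50679272-50679331 (hg19), was lower by a log2 fold change of -4.10, -3.63, and -3.44 in HSC-3, KON, and Ca9-22 (mean -3.72 ± 0.34, SD, n = 3 lines; adjusted p = 0.0227 from limma). The 75th percentile of signal was between 200 and 257 on the 6 arrays, 43.0% to 45.7% of probes were well above background, and no spot was saturated, while precision is limited by the number of arrays.

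Apoptosis runs along an intrinsic and an extrinsic route. In the intrinsic route, BH3-only proteins bind and neutralize the anti-apoptotic BCL2-like proteins or activate BAX and BAK1, which open the outer mitochondrial membrane, so that cytochrome c leaves the mitochondria and assembles with APAF1 and caspase-9. In the extrinsic route, ligands such as TRAIL, the product of TNFSF10, engage death receptors, which recruit FADD and the initiator caspases 8 and 10. Inhibitors of apoptosis (the BIRC genes and XIAP) and CFLAR restrain the caspases or their activation. Messenger RNA levels, which are all that was measured here, give no account of cleavage, localization, or binding of these proteins, and in a bulk sample fewer cells of a kind and less RNA per cell cannot be told apart.

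The sequences below are the antisense strand of the siRNA that defines the treated group, with bases 2 to 8 (the seed) in capitals, and the first 30 bases of the probes of BMF, higher at both probes, and of CASP10, whose probes disagreed. Probe stretches are written 5′ to 3′ on the strand given, with hg19 coordinates from the array design. Exon and UTR annotation in this build was not used here.
siDLEU1-2 antisense: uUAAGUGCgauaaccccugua
BMF, probe 1, chr15:40380480-40380509, minus strand: ctggtggggacttttgagtcttgaggggat
BMF, probe 2, chr15:40384014-40384043, minus strand: tgcacaaccttgctttgaatggagaagaga
CASP10, probe 1, chr2:202057711-202057740, plus strand: ccctaagtttcctggcatttctagagaaac
CASP10, probe 2, chr2:202084646-202084675, plus strand: ccttggggcgtggaagggcattaggagtgt
CASP10, probe 3, chr2:202086244-202086273, plus strand: gagaacaatcccctttgactgtaatttccc
CASP10, probe 4, chr2:202094051-202094080, plus strand: acaagcggatggttaaacaatttaaacaaa
The heptamer GCACTTA, the DNA complement of the seed, was searched on the strand of the probes. It was in 0 of the 70 member probes and in 138 of the 50599 probes of the array (0.273%), which covers the probe sequences only and not the transcripts.

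Across the 60 probes, 6 passed limma's test (adjusted p under 0.05 over all 19956 probes), or 10%, where 8.5% of all probes did. Of the 6, 5 were higher after siDLEU1-2, which is 8.33% of the members against 3.98% of all probes, and 1 was lower, against 4.52%. They belonged to BMF (both probes), BCL2L1, CYCS, and CASP10, called higher, and BCL2L2, called lower. The second BMF probe was dim on 2 siCtrl arrays and passed the filter there through the knockdown array, so its call supports no rise of its own. Among probes well above background on every array, which leaves out the second BMF probe, 5 of 57 members were called by the same fit (8.77%, beside 7.64% of all such probes), 4 of them higher (7.02%, beside 3.6%) and 1 lower (1.75%, beside 4.04%). By the threshold of the study, over 2-fold in every line, 5 probes were counted (8.33% against 4.38% of all probes), both of BMF and those of BIRC3, BCL2L1, and CASP10, and each was higher. With dim values raised to the floor, 4 were counted, beside 3.8% of all probes, since the second BMF probe then missed 2-fold in Ca9-22. Leaving out HSC-3 or KON ended all 6 calls, and without Ca9-22 only BMF probe 1 was still called. Of all probes, 0 were called without HSC-3 or KON and 244 (1.22%) without Ca9-22. With median centering, the 2-fold count kept both BMF probes and BIRC3 and lost BCL2L1 and CASP10.

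Within single lines, 11 member probes were over 2-fold in HSC-3 (14.2% of all probes were, and 18.3% of the members), 13 in KON (14.6% and 21.7%), and 9 in Ca9-22 (13% and 15%). The direction was the same in all 3 lines for 32 of the 60 probes, or 53.3%, beside 53.6% of all probes. The median of the mean log2 fold changes over the 60 probes was 0.10 and that over all probes was 0.0073. On all 6 arrays, 57 of the 60 stood well above background, and the others, of BMF, CASP10, and CFLAR, were dim on 1 or 2 arrays.

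**Figure D1:**
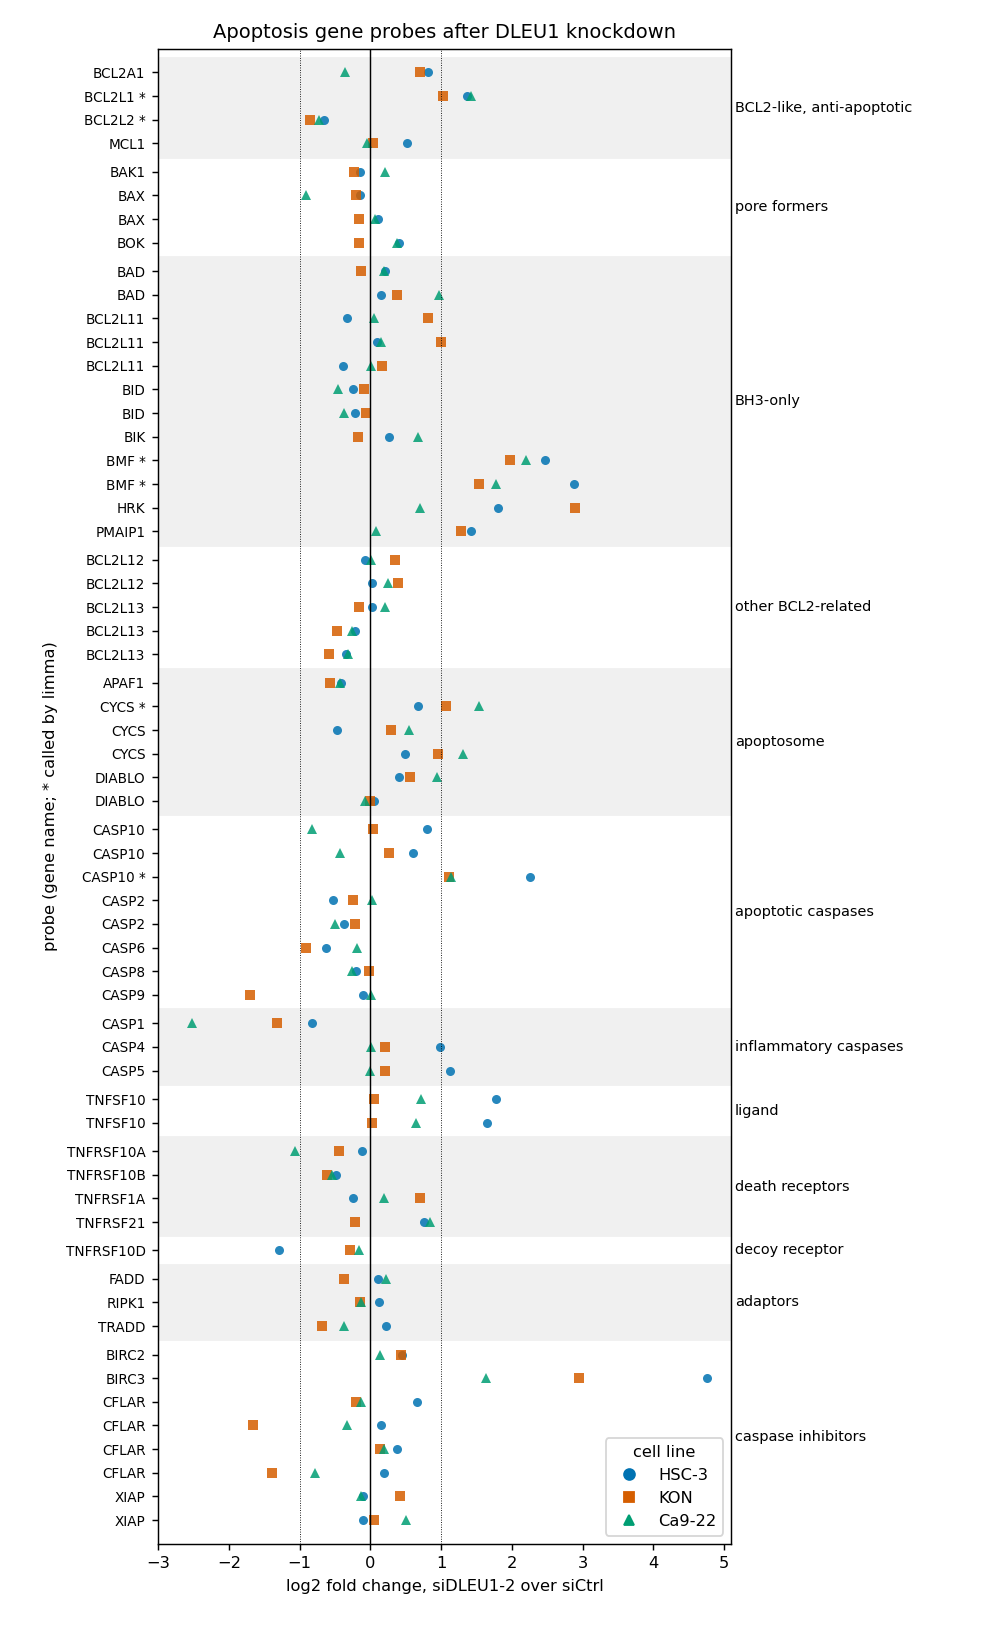
Log2 fold change (siDLEU1-2 over siCtrl, horizontal axis) of each of the 60 member probes that passed the filter, with 1 point per cell line, grouped by role, and with dotted lines at 2-fold. The points of BMF, BCL2L1, BIRC3, and 1 CASP10 probe lie right of the 2-fold line in all 3 lines, although those of the second BMF probe in HSC-3 and Ca9-22 are drawn as measured and support only bounds (at least 4.55-fold and 1.63-fold), while most other probes lie between the dotted lines.

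Among the BH3-only genes, BMF, which encodes a sensor that binds the anti-apoptotic BCL2-like proteins, was higher in every line at both of its probes and rose by limma's test at probe 1. At probe 1 (chr15:40380450-40380509) its log2 level, set to 0 at the 75th percentile of each array, was 0.77, 2.20, and 0.14 in HSC-3, KON, and Ca9-22 after siCtrl, and 3.24, 4.18, and 2.35 after siDLEU1-2. Every siDLEU1-2 array was above every siCtrl array. The log2 fold change was 2.47, 1.98, and 2.20 in HSC-3, KON, and Ca9-22 (mean 2.22 ± 0.25, SD, n = 3 lines; adjusted p = 0.0227 from limma). At probe 2 (chr15:40383984-40384043), the level was -4.28, -2.92, and -4.51 after siCtrl and -1.40, -1.39, and -2.73 after siDLEU1-2, in the same order of lines. It was well above background on 1 of the 3 siCtrl arrays, that of KON, and on all siDLEU1-2 arrays, so that it passed the filter in HSC-3 and Ca9-22 through the knockdown array and its test supports no rise of its own. The log2 fold change was 1.53 in KON, while the other lines give bounds, at least 4.55-fold higher in HSC-3 and at least 1.63-fold higher in Ca9-22. The fitted mean of 2.06 (adjusted p = 0.0321 from limma) became 1.47 with dim values raised to the floor and 0.61 with normexp background correction.

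The other BH3-only genes had 10 probes, none of which was called. HRK, a sensor best known from neurons, had a log2 level of 1.55, -1.79, and -1.56 in HSC-3, KON, and Ca9-22 after siCtrl, and of 3.35, 1.10, and -0.87 after siDLEU1-2. Its log2 fold change was 1.81, 2.89, and 0.70, so that it was higher in all lines, with a spread that left it uncalled (mean 1.80 ± 1.10, SD, n = 3 lines; adjusted p = 0.0741 from limma). PMAIP1, which encodes NOXA, a partner of MCL1, went from 1.97 to 3.40 in HSC-3, from 2.06 to 3.34 in KON, and from 2.94 to 3.02 in Ca9-22. It was thus over 2-fold higher in HSC-3 and KON and nearly level in Ca9-22 (mean log2 fold change 0.93, adjusted p = 0.13 from limma). The remaining probes, of BAD, BCL2L11 (which encodes BIM), BID, and BIK, had mean log2 fold changes between -0.26 and 0.50.

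The anti-apoptotic BCL2-like genes moved in both directions. BCL2L1, which encodes BCL-XL and its shorter pro-apoptotic splice form, rose. On 1 probe printed in 10 spots (chr20:30253324-30253383), its log2 level after siCtrl was 0.22, 1.01, and 0.88 in HSC-3, KON, and Ca9-22, and after siDLEU1-2 it was 1.58, 2.05, and 2.30. The groups did not overlap, and the log2 fold change was 1.36, 1.03, and 1.42 (mean 1.27 ± 0.21, SD, n = 3 lines; adjusted p = 0.0266 from limma). Between the 8 to 10 spots left on an array after flagged spots were dropped, the SD was 0.029 to 0.071. The difference was larger than that spread on every array and than the spread between lines. Spots of 1 array repeat 1 hybridization and are not replicates of the knockdown. Which splice form the probe measured cannot be told from these values.

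BCL2L2, which encodes BCL-W, was the only member to fall by limma's test. Its log2 level (chr14:23780660-23780719) was 3.83, 2.98, and 2.62 in HSC-3, KON, and Ca9-22 after siCtrl and 3.17, 2.13, and 1.90 after siDLEU1-2. The groups overlapped because the lines started from different levels, while the log2 fold change was alike in the 3 lines, at -0.66, -0.85, and -0.72 (mean -0.74 ± 0.10, SD, n = 3 lines; adjusted p = 0.0463 from limma). With the filter relaxed to any 3 of the 6 arrays above background, the call was lost (adjusted p = 0.0671 from limma).

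MCL1 and BCL2A1 were not called, with mean log2 fold changes of 0.17 and 0.38. MCL1 went from 3.55 to 4.06 in HSC-3 and was within 0.05 of its siCtrl level in KON and Ca9-22. The second BCL2A1 probe was not well above background on any array. BCL2 itself did not pass the filter, since neither of its probes was above background in HSC-3. At its 10-spot probe (chr18:60790723-60790782) the log2 level was -2.95 and -1.85 in KON and -1.51 and -1.26 in Ca9-22, after siCtrl and siDLEU1-2, and at the other probe it was -2.79 and -2.40 in KON and -1.82 and -1.76 in Ca9-22. BCL2 was thus not lower after knockdown at any probe in the lines that showed it, with no test.

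BCL2L10 (chr15:52401867-52401926), a BCL2-like gene that the study names among putative targets of DLEU1, was well above background on the siCtrl arrays of HSC-3 and KON, at a log2 level of -2.05 and -1.73, and on no siDLEU1-2 array, where it read -5.64, -3.98, and -5.15 in HSC-3, KON, and Ca9-22. The knockdown values are therefore bounds. In HSC-3 the gene was lower by at least 2.91-fold, and in KON by at least 3.46-fold, each against the lowest signal among probes well above background on the knockdown array. Its single siCtrl spot in Ca9-22 was marked by the scanner software as not uniform and was left out, so the gene was not tested.

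**Figure D2:**
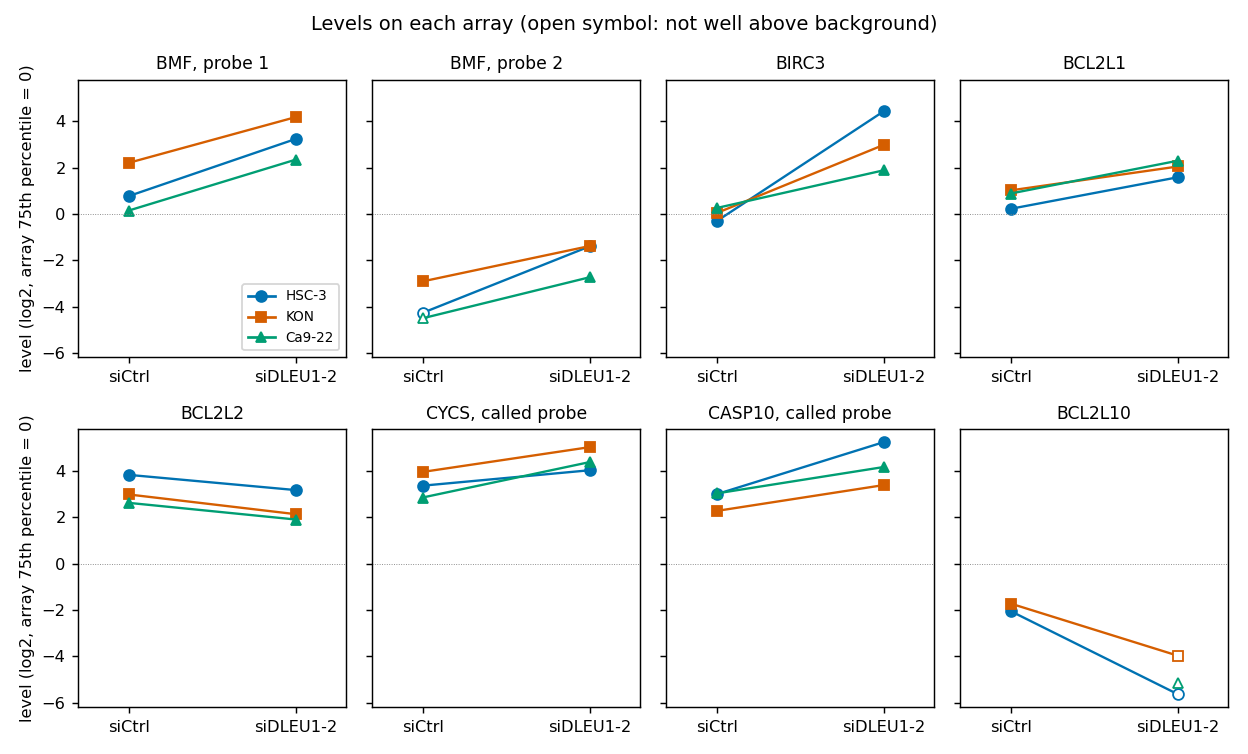
Log2 level (vertical axis, 0 at the 75th percentile of the array) of 8 member probes on the 6 arrays, with a line joining the siCtrl and siDLEU1-2 arrays of each cell line and open symbols where the probe was not well above background. BMF, BIRC3, BCL2L1, CYCS, and CASP10 slope upward in every line, BCL2L2 slopes downward by a like step in each, and BCL2L10 is at background on all siDLEU1-2 arrays, with no siCtrl value in Ca9-22. Levels of different probes are not comparable.

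The pore formers showed little difference. BAX, BAK1, and BOK had 4 probes with mean log2 fold changes between -0.42 and 0.21, none of them called. The 10-spot BAX probe had log2 fold changes of 0.11, -0.16, and 0.07 in HSC-3, KON, and Ca9-22, with an SD between spots of 0.034 to 0.059 on an array. The other BAX probe, which starts 450 bases upstream, gave -0.15, -0.20, and -0.91 in the same order of lines. BCL2L12 and BCL2L13, BCL2-related genes whose role in cell death is disputed or indirect, had 5 probes between -0.41 and 0.23, and BCL2L14 was not above background on any array.

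Of the genes that act with or after mitochondrial release, CYCS, which encodes cytochrome c, rose by 1 of its 3 probes. At the called probe, whose design coordinates begin at chr7:25158264-25158296, the log2 level was 3.36, 3.96, and 2.85 in HSC-3, KON, and Ca9-22 after siCtrl and 4.03, 5.03, and 4.38 after siDLEU1-2. No siDLEU1-2 array was below a siCtrl array, and the log2 fold change was 0.67, 1.07, and 1.53 (mean 1.09 ± 0.43, SD, n = 3 lines; adjusted p = 0.0493 from limma). A probe at chr7:25163135-25163189 gave 0.49, 0.96, and 1.31 (mean 0.92; adjusted p = 0.062 from limma, 0.0412 with normexp, and 0.045 with only probes above background on all arrays), the same order of lines. The remaining probe (chr7:25158320-25158379) was dimmer, between -3.26 and -0.90 on the arrays, and gave -0.47, 0.29, and 0.54. The call was lost with quantile normalization (adjusted p = 0.0683 from limma), with centering on the median (0.0532) or on probes above background everywhere (0.0562), and with the relaxed filter (0.0707). RefSeq lists 45 pseudogenes named after CYCS, and whether their transcripts bind these probes was not tested.

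DIABLO, which encodes SMAC, an antagonist of the inhibitors of apoptosis, was measured by probes that differed. At chr12:122692558-122692617 the log2 level went from 4.23 to 4.64 in HSC-3, from 4.32 to 4.89 in KON, and from 4.36 to 5.30 in Ca9-22, and the groups did not overlap (mean log2 fold change 0.64; adjusted p = 0.0853 from limma). At the other DIABLO probe the mean was -0.0090, with no line beyond 0.08. APAF1, the scaffold of the apoptosome, was lower by 0.41 to 0.57 in the 3 lines and was not called (mean log2 fold change -0.47; adjusted p = 0.102 from limma).

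Among the apoptotic caspases, CASP10, an initiator caspase of the death receptors, rose at probe 3 only. There the log2 level was 2.99, 2.27, and 3.03 in HSC-3, KON, and Ca9-22 after siCtrl and 5.25, 3.39, and 4.17 after siDLEU1-2, with every knockdown array above every control array. The log2 fold change was 2.25, 1.12, and 1.14 (mean 1.50 ± 0.65, SD, n = 3 lines; adjusted p = 0.0469 from limma). At probe 2, which starts 1598 bases upstream and is assigned by the array design to the same transcript, NM_032977, the level went from 2.22 to 2.82 in HSC-3, from 0.94 to 1.20 in KON, and from 0.45 to 0.03 in Ca9-22. Probe 1, assigned to NM_032974, went from -2.09 to -1.29, and from -2.70 to -2.67 in HSC-3 and KON, and was at -2.59 after siCtrl in Ca9-22, where it was not well above background after siDLEU1-2 (at least 1.62-fold lower). Probe 4, also assigned to NM_032974, was well above background only on the siCtrl array of Ca9-22, at -2.22, and was at least 2.10-fold lower after siDLEU1-2 there. In HSC-3 all 3 probes above background read higher after knockdown, whereas in Ca9-22 only probe 3 did. The call at probe 3 was lost with centering on the median (adjusted p = 0.0541 from limma) and with the relaxed filter (0.0676).

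The remaining apoptotic caspases, CASP2, CASP6, CASP8, and CASP9, had no called probe. CASP6, an executioner caspase, went from 2.65 to 2.02 in HSC-3, from 2.99 to 2.07 in KON, and from 2.39 to 2.20 in Ca9-22, so that the groups did not overlap (mean log2 fold change -0.58; adjusted p = 0.129 from limma). CASP9, the caspase of the apoptosome, was at 0.32 after siCtrl and at -1.39 after siDLEU1-2 in KON and within 0.11 of its control in the other lines, a difference between lines that 1 array each does not allow to be tested. CASP2 and CASP8 had mean log2 fold changes of -0.16 to -0.36 at the probes that passed the filter.

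Of the inflammatory caspases, which act in cytokine processing and pyroptosis and were given no apoptotic role, CASP1 was lower in all lines and was not called. Its log2 level was 4.21, 3.74, and 3.67 in HSC-3, KON, and Ca9-22 after siCtrl and 3.39, 2.43, and 1.15 after siDLEU1-2, without overlap. The log2 fold change was -0.83, -1.32, and -2.52 (mean -1.55 ± 0.87, SD, n = 3 lines; adjusted p = 0.0662 from limma, 0.0425 with normexp background correction, and 0.0469 with only probes above background on all arrays). CASP4 and CASP5, which lie beside CASP1 on chromosome 11, had log2 fold changes of 0.99 and 1.13 in HSC-3, of 0.21 each in KON, and of under 0.05 in size in Ca9-22. CASP14, a caspase of keratinizing skin, was not above background on any array.

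On the extrinsic route, TNFSF10 was higher in HSC-3 and Ca9-22 and not in KON. At its 10-spot probe (chr3:172223866-172223925) the log2 level was 4.83, 0.79, and 4.04 in HSC-3, KON, and Ca9-22 after siCtrl and 6.61, 0.84, and 4.76 after siDLEU1-2. At the second probe (chr3:172224226-172224285) the log2 fold changes were 1.65, 0.03, and 0.65, and differed from those of the first by at most 0.13 in any line. Neither was called (mean 0.85, adjusted p = 0.197, and mean 0.78, adjusted p = 0.212, from limma). Another probe (chr3:172235153-172235212), assigned to another transcript, NM_001190943, was above background on 1 array of 6, that of siDLEU1-2 in Ca9-22, at 0.16, at least 12.1-fold higher than after siCtrl there.

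None of the 5 receptors past the filter was called. TNFRSF10B, a TRAIL receptor with a death domain (chr8:22877776-22877835), had the narrowest spread of the class. It went from 4.56 to 4.07 in HSC-3, from 4.86 to 4.24 in KON, and from 4.48 to 3.95 in Ca9-22, without overlap (mean log2 fold change -0.55 ± 0.065, SD, n = 3 lines; adjusted p = 0.0742 from limma, and 0.0367 with normexp). TNFRSF10A, the other such receptor, was lower by 0.12, 0.44, and 1.07 (adjusted p = 0.196 from limma), and the decoy receptor TNFRSF10D, which binds the ligand without passing on the signal, by 1.29, 0.29, and 0.16 (adjusted p = 0.234 from limma). TNFRSF10C was not above background on any array. TNFRSF21, another death domain receptor, was higher in HSC-3 and Ca9-22, by 0.75 and 0.85, and lower in KON, by 0.21 (adjusted p = 0.305 from limma), while TNFRSF1A, a TNF receptor that also signals to survival, had a mean of 0.21 (adjusted p = 0.564 from limma). The adaptors FADD, RIPK1, and TRADD had mean log2 fold changes between -0.28 and -0.014.

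Among the caspase inhibitors, BIRC3, which encodes cIAP2, a ubiquitin ligase of TNF receptor complexes and a well known target of NF-κB, showed the largest mean log2 fold change of the 60 probes. Its log2 level (chr11:102208356-102208415) was -0.32, 0.03, and 0.25 in HSC-3, KON, and Ca9-22 after siCtrl and 4.44, 2.98, and 1.88 after siDLEU1-2. The control levels of the lines lay close together, the levels after knockdown lay farther apart, and the groups did not overlap. The log2 fold change was 4.75, 2.95, and 1.63 in HSC-3, KON, and Ca9-22 (mean 3.11 ± 1.57, SD, n = 3 lines), over 2-fold in each line, and limma's adjusted p of 0.051 missed the threshold of 0.05. It was called with quantile normalization (adjusted p = 0.0461 from limma), normexp background correction (0.0363), values raised to the floor (0.0427), and only probes above background on all arrays (0.0343). BIRC2, its neighbor on chromosome 11, which encodes cIAP1, was higher by 0.45, 0.43, and 0.14 and was not called (adjusted p = 0.212 from limma).

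XIAP, the direct caspase inhibitor, had mean log2 fold changes of 0.065 and 0.15 at its probes. CFLAR, which encodes the FLIP proteins that compete with caspase-8 at death receptors, had 4 probes with means between -0.66 and 0.24, none called. In KON the 3 probes above background on both arrays gave -0.21, -1.66, and 0.13 in order of position along the gene, and the last probe, dim after siDLEU1-2 in KON and Ca9-22, was at least 2.62-fold lower in KON and at least 1.71-fold lower in Ca9-22. In HSC-3 all 4 were higher, by 0.16 to 0.66.

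Probes of 1 gene could be compared in 14 genes that had several passing the filter. Their mean log2 fold changes had the same sign in 9 genes and lay within 0.5 of each other in 10, and the median distance was 0.42. Only the probes of CASP10 were more than 1 apart, at 1.50, followed by CYCS at 0.97 and CFLAR at 0.90. The means of both BID probes, of the TNFSF10 pair, and of the XIAP pair lay within 0.1. In single lines the XIAP probes differed by up to 0.63, those of BID by up to 0.078, and those of TNFSF10 by up to 0.13. No called probe shared a stretch of 16 bases with a probe of another gene, whereas probes of TNFRSF1A, TRADD, CFLAR, BID, BCL2L12, BCL2L14, and TNFRSF10D did.

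**Figure D3:**
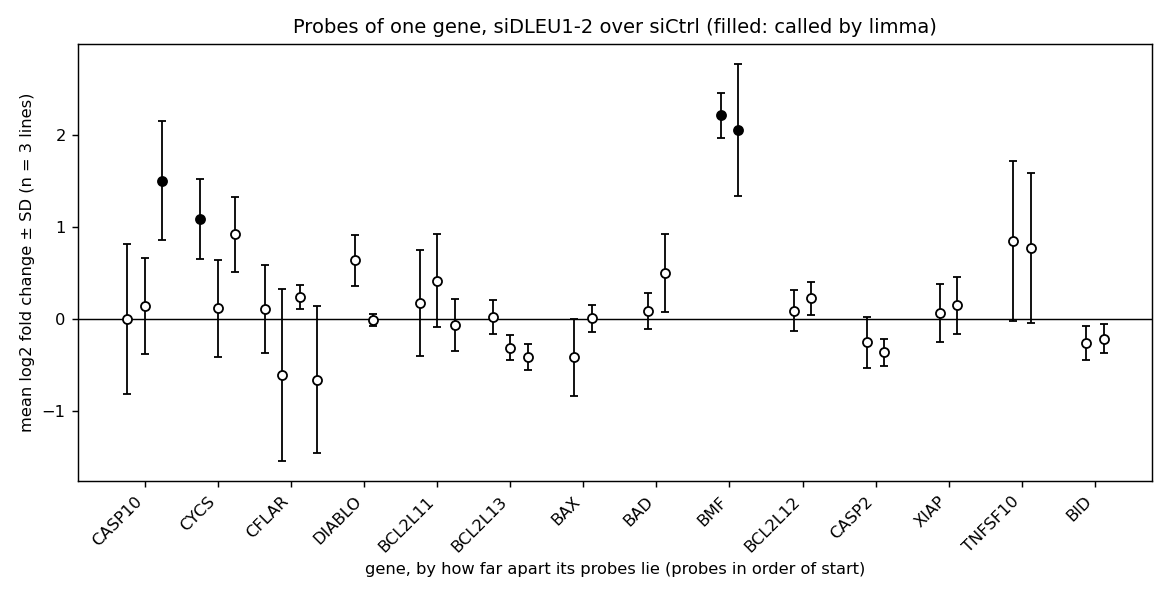
Mean log2 fold change over the 3 cell lines (vertical axis, error bars SD, n = 3 lines) of each probe in the 14 genes with several probes past the filter, ordered by the distance between probes. The BMF probes lie at 2.22 and, with 2 control arrays at background, at 2.06, while 1 of 3 CASP10 probes lies at 1.50 and the others near 0.

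Pro- and anti-apoptotic members were then set against each other by gene, each gene being the mean of its probes past the filter. All 23 pro-apoptotic genes had such a probe, and 9 of the 12 anti-apoptotic genes did. BCL2, BCL2L10, and TNFRSF10C did not, so the medians and counts leave them out. Of these, BCL2L10 was lower in HSC-3 and KON, BCL2 was not lower in KON or Ca9-22, and TNFRSF10C was at background. The median mean log2 fold change was 0.18 over the pro-apoptotic and 0.17 over the anti-apoptotic genes, beside 0.0063 over all 15281 gene names. By line, the pro-apoptotic median was 0.11, -0.16, and 0.084 in HSC-3, KON, and Ca9-22, and the anti-apoptotic median was 0.45, 0.24, and -0.044. Pro minus anti was thus -0.34, -0.40, and 0.13 in HSC-3, KON, and Ca9-22. Of the pro-apoptotic genes 12 were higher and 11 lower, and of the anti-apoptotic genes 6 were higher and 3 lower.

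The mean of these 3 differences was -0.20 with an SD between lines of 0.29, so that it was smaller than its spread, with the anti-apoptotic median higher in 2 of 3 lines. The difference between the medians of the gene means was 0.0080. Its sign turned with the brightest probe of each gene (-0.18), with a role given to the unassigned members (-0.083), with the relaxed filter (-0.019), and with any line left out (-0.23 to -0.057). With 3 lines the smallest two-sided exact p is 0.25, so no test was made. Among genes past the filter, the extremes of the pro-apoptotic role were BMF at 2.14 (2.22 at probe 1 alone) and CASP9 at -0.60. Those of the anti-apoptotic role were BIRC3 at 3.11 and BCL2L2 at -0.74. BCL2L10, which did not pass the filter, was lower by at least 2.91-fold in HSC-3 and 3.46-fold in KON. The 10 genes given no role, because they act in both directions or outside apoptosis, had a median of 0.054 over the 8 with a probe past the filter.

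**Figure D4:**
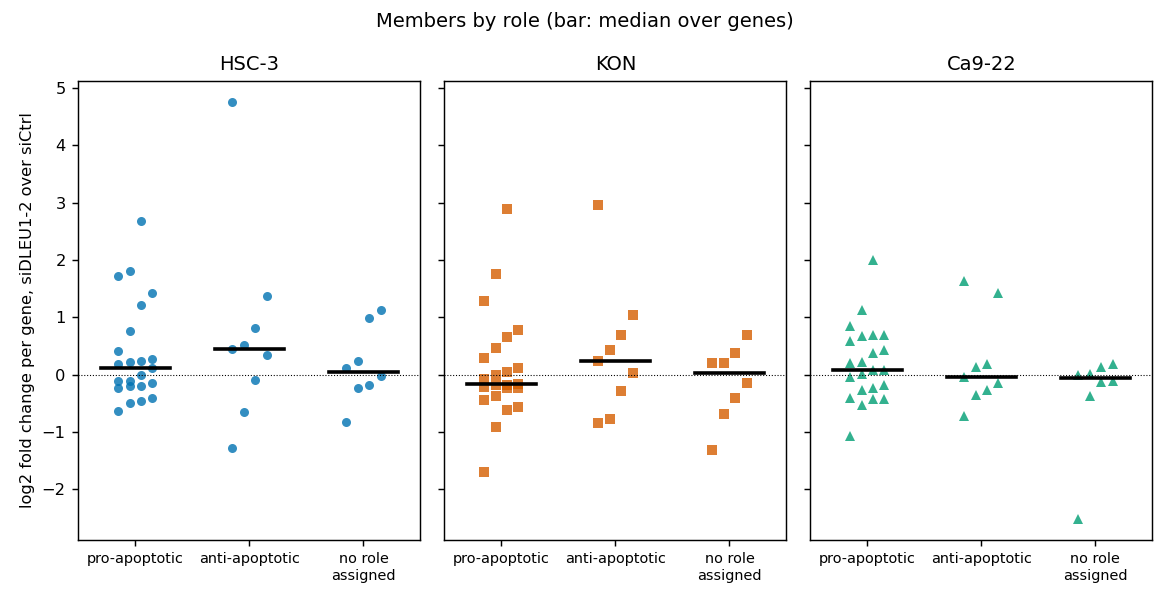
Log2 fold change per gene (vertical axis, siDLEU1-2 over siCtrl) in each cell line for pro-apoptotic, anti-apoptotic, and unassigned members, with a bar at the median. The medians of the roles differ by at most 0.40 in a line, with the anti-apoptotic one above in HSC-3 and KON and below in Ca9-22, while single genes range from -2.52 to 4.75.

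Levels also differed between the lines regardless of the siRNA. In 6 member probes, both arrays of 1 line were more than 4-fold from both arrays of another, 10% of the members against 6.35% of all probes. TNFSF10 was lowest in KON, at a mean log2 level over both arrays of 0.81 against 5.72 in HSC-3 and 4.40 in Ca9-22. Both BID probes were lowest in Ca9-22, at 3.22 and 3.37, beside 5.50 to 5.77 in the other lines. HRK met this rule only between HSC-3, at 2.45, and Ca9-22, at -1.22. In KON it read -1.79 after siCtrl and 1.10 after siDLEU1-2, beside 1.55 in HSC-3 after siCtrl. The BCL2L11 probe at chr2:111886352-111886411 was highest in KON, at 3.60 against -0.11 in HSC-3, whereas the other BCL2L11 probes did not differ by 4-fold. Arrays of siCtrl and siDLEU1-2 did not overlap for 11 member probes, or 18.3%, against 11% of all probes. The 11 include the second BMF probe, which was dim on the siCtrl arrays of HSC-3 and Ca9-22.

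A list of 36 further genes of the pathway, chosen by function, had 40 probes of 30 genes past the filter, and 4 genes had a called probe, 2 higher and 2 lower, of which 3 are described. These were 4 of 40 probes, beside 8.5% of all probes. The median of their mean log2 fold changes was 0.075. BBC3, the BH3-only gene that encodes PUMA, went from 2.54 to 3.68 in HSC-3, from 2.36 to 2.95 in KON, and from 2.51 to 3.43 in Ca9-22 (mean 0.88 ± 0.28, SD, n = 3 lines; adjusted p = 0.0493 from limma). Its call was lost with median centering (adjusted p = 0.0632 from limma), scaling on probes above background on all arrays (0.0507), and the relaxed filter (0.0705). PYCARD, the adaptor that links inflammasomes to caspase-1, fell by 1.08, 1.43, and 1.47 (adjusted p = 0.0257 from limma) and was the only one of the list over 2-fold in all lines. MLKL, the effector of necroptosis, fell by 1.04, 0.75, and 1.61 (adjusted p = 0.0471 from limma, and 0.068 with the relaxed filter). With quantile normalization or median centering, 1 probe was called higher and 2 lower (8.26% and 8.56% of all probes were called). With scaling on probes above background on all arrays, 0 were higher and 2 lower (8.23%). With normexp, 7 genes had a called probe, with 6 probes higher and 3 lower (11.6%). BIRC7, FASLG, LTA, RIPK3, and TNFRSF1B were not above background on any array.

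Markers of squamous epithelium were as the label of the lines says, with 9 of 9 above background on all arrays. Among them CDH1 was called higher and KRT6A and SFN were called lower, and their summed level relative to the 75th percentile was 598 to 2397 after siCtrl and 502 to 1728 after siDLEU1-2. Of 6 fibroblast markers, 4 were above background on no array and COL1A1 was called higher (mean log2 fold change 1.45), so that the sum was 0.77 to 0.92 after siCtrl and 1.75 to 2.96 after siDLEU1-2. Leukocyte markers, of which only CD14 was above background on all arrays, summed to 0.84 to 48.4 and 1.14 to 64.9, and endothelial markers to 0.33 to 0.97 and 0.51 to 1.81. Each sum runs over all probes of a list and is led by its brightest ones, so that it gives no share of a cell type. The part of these markers in the results above was not tested.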

How the data were processed

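Total RNA (100 ng) was labeled with Cy3 and hybridized to one-color arrays, and the files the authors deposited come from Feature Extraction 10.7.3.1, whose processed signal is a background-subtracted intensity on a linear scale. The deposited series table holds the same intensity (within 0.497%). Here spots flagged as outliers were dropped, log2 of the signal was taken minus the 75th percentile of each array, with the mean taken over spots of 1 probe. A probe passed the filter if it was usable on all 6 arrays and well above background (in at least 50% of its spots) on 1 or both of the 2 arrays from each line. limma 3.58.1 in R 4.3.3 fitted siRNA with cell line as a block, after testing on simulated data, and Benjamini-Hochberg adjustment ran over all 19956 probes. The lines pair the arrays, and the deviations of both arrays of a line from their group means correlated at 0.83, 0.81, and 0.82. Groups came from the labels, which name the siRNA only as one against DLEU1, and the name siDLEU1-2 comes from the text of the study. Where a probe was at background on 1 side of a line, the line's fold is a bound against the higher of the lowest signal among probes well above background and the probe's own value, while fitted means use the values as measured.

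The members and gene lists were chosen with earlier results of these data known. All 45 members are named. Levels by array are given for the probes called or over 2-fold in all lines, for BCL2L10, and, where above background, for CASP10, the gene whose probes were more than 1 apart, while other CYCS probes are given by their fold changes. HRK, PMAIP1, CASP1, CASP6, CASP9, MCL1, BCL2, DIABLO, TNFSF10, and TNFRSF10B were detailed after their values were seen. Alternatives were other normalizations, background corrections, filters, probe summaries, roles, and tests, and each line left out. A called gene among the further genes of the pathway is not reported here.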

Additional observations from a re-analysis of the deposited data

Results flagged for a closer look

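The TNFSF10 probe at chr3:172235153-172235212 did not pass the filter and was not among the 60 probes tested. It read 0.16 after siDLEU1-2 in Ca9-22, well above background, where its 5 other arrays were at background. It rests on 1 spot on 1 array.

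The BCL2L10 spot left out of the siCtrl array in Ca9-22, marked as not uniform, read 2.03 on the log2 scale, above the highest siCtrl level of the other lines (-1.73).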

How the results depend on the processing

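No called probe changed direction under any alternative run, and at most 7 of the 60 member probes, all uncalled, changed sign in a setting (without KON). The count of member probes called, 6 (8.5% of all probes), became 10 with normexp background correction (7 higher, 3 lower; 11.6% of all probes), 8 with only probes above background on all arrays (6 higher, 2 lower; 11.4%), 3 with the filter relaxed to 3 arrays (3.78%), 3 of 40 genes with the probes of a gene averaged (BCL2L1, BCL2L2, BMF; 8.23% of all genes), and 0 with all measured probes (15 at an unadjusted p under 0.05 from limma), with no replicate block (8), and with the methods' t-test (7), settings in which 0 of all probes were called. It was 0 without HSC-3 or KON and 1 without Ca9-22. The 4 other apoptosis genes called became 2 with scaling on probes above background on all arrays, 7 with normexp, 1 with the relaxed filter, and 0 with all measured probes (13 unadjusted), any line left out, no replicate block (2), and the methods' t-test (2). Over 2-fold in all lines lay 3 member probes with median centering (4.41% of all probes), 3 with normexp (2%), 5 to 7 with a line left out (6.55% to 6.9%), and, at over 3-fold, 2 (1.29%). DLEU1 was at -3.72 without passing limma's threshold with all measured probes (adjusted p = 0.141), no replicate block (0.183), and the methods' t-test (0.331), at -3.87 to -3.54 with a line left out (not called without HSC-3, adjusted p = 0.0808, or KON, 0.103), and at -2.69, still called, with normexp. The pro- minus anti-apoptotic difference of medians lay between -0.23 (without Ca9-22) and 0.055 (quantile normalization). Using all measured probes moved the median of all probes by 0.13. With 3 lines and 1 array for each condition, calls rest on the block and on the filter, and lines in which a probe is dim give bounds only.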
